A study of Schizosaccharomyces pombe with 8 samples.

Results

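The comparison described here is that of fission yeast cells lacking pap1 with wild type cells when no active nitric oxide was present. It rests on 4 of the 8 arrays of the series, chosen by their titles as the control arrays of both strains, and on 2896 genes, each read by a probe set annotated with exactly 1 Schizosaccharomyces pombe gene. The mutant was strain AV25, an h- strain in which pap1 is replaced by the kanMX6 cassette (h- pap1::kanMX6), and the wild type was strain 972, also h-. Both were grown in yeast extract medium, moved to phosphate-buffered saline and given decomposed detaNONOate, a nitric oxide donor that had spent its gas beforehand, at 3 mM for 15 min at 30 °C. Every value below is therefore from cells that had met spent donor and saline, not from cells left in growth medium. Each group holds 2 arrays, which the labels call biological replicates without saying whether they came from separate cultures, so p-values measure the spread between these arrays. Cells of the flasks that gave the controls also gave the treated groups, pap1 deletion treated and wild type treated, with 2 arrays each after active donor at the same dose and time. The mutant is 1 strain, so an effect of pap1 and one of any other difference between AV25 and 972 cannot be told apart.

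Pap1 is a bZIP transcription factor related to mammalian AP-1. In unstressed fission yeast it passes through the nucleus and is carried out by the exportin Crm1. Mild oxidation by peroxide, relayed by the peroxiredoxin Tpx1, masks its export signal, so that it gathers in the nucleus and turns on genes for peroxide removal, thioredoxin recycling and drug efflux. The control arrays of the mutant ask how much of this programme needs Pap1 before any such stress.

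The labels were checked first. The pap1 gene read 2.33 and 2.35 in the deletion control arrays, against 9.90 and 9.93 in the wild type control arrays, all on the log2 scale of the deposited values. The deletion arrays lay below the background level of 3.41, the 95th percentile of the probe sets for another yeast on the same array, so the deletion had at least 90.7-fold less pap1 signal than wild type, and limma's fit gave a difference of -7.58 ± 0.04 (SE, adjusted p = 9.23e-11). One of the 47 reporter probe sets of the array behaved as the mirror image, at 11.37 and 11.28 in the deletion controls against 2.11 and 2.02 in wild type controls. Its target is not named in the annotation used here, while the genotype label gives the mutant a kanMX6 marker. The mating type markers did not separate the strains: of 7 measured genes of h- cells 1 passed the test, mfm2, which encodes the M-factor pheromone of h- cells, at 7.28 and 7.27 in deletion controls against 7.00 and 7.06 in wild type controls. Of 4 measured genes of h+ cells 1 passed, the cell adhesion gene map4, at 5.59 and 5.58 in deletion controls against 5.35 and 5.14 in wild type controls. Both calls were lost when single arrays were left out, and 8.22% of all genes tested were higher. The biosynthesis genes that often carry marker mutations, ura4, leu1 and ade6 among 12 such genes, were expressed in both strains, and 3 of the 12 were slightly higher in the deletion, led by ura4 with 9.96 and 10.00 in deletion controls against 9.64 and 9.68 in wild type controls, a call lost without deletion control replicate 2 or wild type control replicate 1.

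Of the 3 nearest measured genes on either side of pap1, the immediate neighbour atg12, for a ubiquitin-like protein of autophagy (locus SPAC1783.06c), was the one that passed the test. It read 6.50 and 6.41 in deletion controls against 5.73 and 5.84 in wild type controls, a difference of 0.67 ± 0.06 (adjusted p = 0.00164). The other measured genes of this stretch, hst4, hrp1, rpl1502, chp1 and ypt3, differed by -0.04 to 0.21 and none passed the test. After active donor atg12 had a strain difference of -0.07, which did not pass.

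Most of the transcriptome of the deletion lay close to that of wild type. At an adjusted p under 0.05, 238 genes were higher in the deletion (8.22% of those tested) and 265 were lower (9.15%), together 17.4%, and 2393 did not pass. Most of these differences were small, with a median of 0.25 for the rises and -0.31 for the falls, against a median SD between replicate arrays of 0.0351 in deletion controls and 0.0342 in wild type controls. Only 5 genes (0.173%) moved by 2-fold or more: pap1 itself, gst2, plr1 and obr1 fell and tlh2 rose. At 0.5 on the log2 scale, 8 genes were higher (0.276%) and 44 were lower (1.52%). Over all genes the arrays of the strains correlated at 0.9939 to 0.9942 (Pearson, across genes, which are not independent replicates), against 0.9993 between the deletion controls and 0.9992 between the wild type controls. With arrays centred on their median gene the split of calls was 335 higher and 249 lower, so the balance of rises and falls rests on the scaling. With any single control array left out, 24 to 51 genes were higher and 83 to 87 were lower, in each of the 4 cases fewer by more than 1.5 times than with all arrays.

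**Figure D1:**
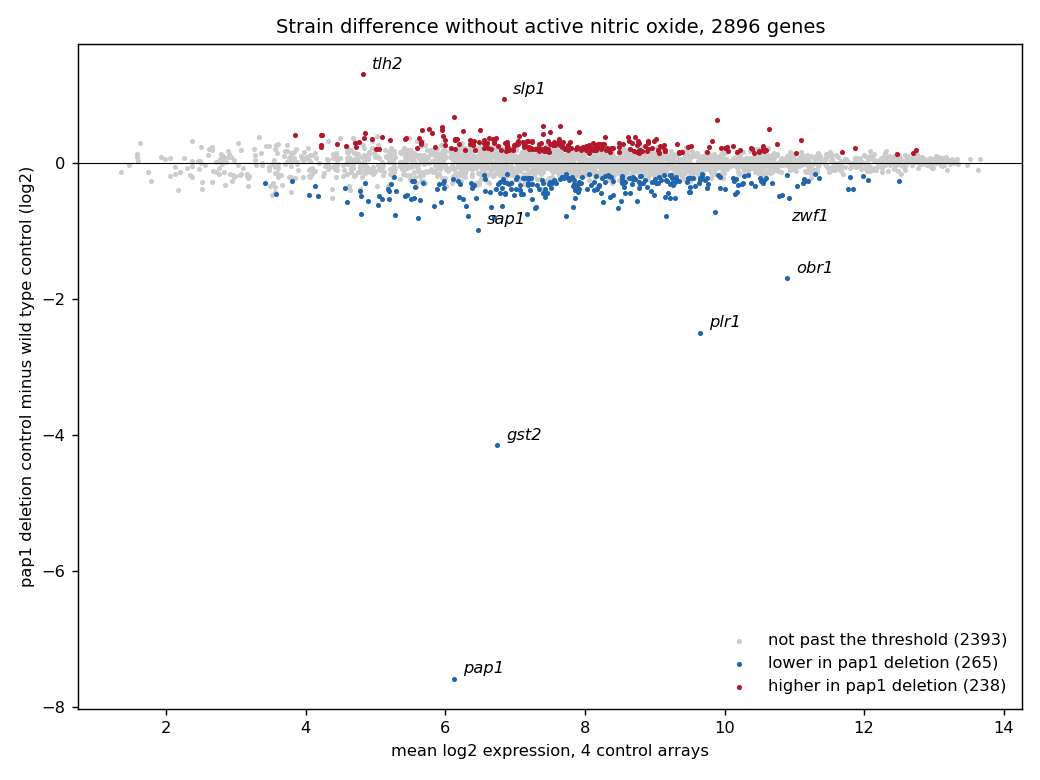
Strain difference (pap1 deletion control minus wild type control, log2) of each of the 2896 genes against its mean log2 expression over the 4 control arrays. Coloured points passed an adjusted p under 0.05: 238 higher and 265 lower in the deletion; pap1, gst2, plr1 and obr1 lie far below the band that holds nearly all others.

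Beside pap1, the 3 genes with the largest falls encode enzymes of detoxification and redox metabolism. The glutathione S-transferase gene gst2, whose product joins glutathione to reactive compounds, read 4.79 and 4.55 in deletion controls against 8.80 and 8.83 in wild type controls. That is 17.7-fold less in the deletion (-4.15 ± 0.15, adjusted p = 1.26e-05), and the low arrays still lay above background. In such bulk RNA, fewer cells expressing a gene and less of its RNA per cell cannot be told apart. The pyridoxal reductase gene plr1, of vitamin B6 metabolism, read 8.43 and 8.36 in deletion controls against 10.90 and 10.88 in wild type controls (-2.50 ± 0.05, adjusted p = 3.31e-07). The flavodoxin-like gene obr1, long known as a Pap1 target in fission yeast, read 10.05 and 10.05 in deletion controls against 11.76 and 11.72 in wild type controls (-1.70 ± 0.04, adjusted p = 1.33e-06). For each of these genes both deletion arrays were below both wild type arrays, as the rule for naming the largest falls required. The same held for 32.2% of all genes tested. The gene gst1, which encodes another glutathione S-transferase, differed by 0.01 and did not pass. The genes gst2, plr1 and obr1 were also lower in the deletion after active donor, by -3.19, -1.85 and -1.59. Levels in the treated arrays do not enter the difference between the controls, although all 8 arrays share 1 estimate of the spread. Cells of the same flasks gave control and treated arrays, so the treated arrays are not an independent repeat.

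**Figure D2:**
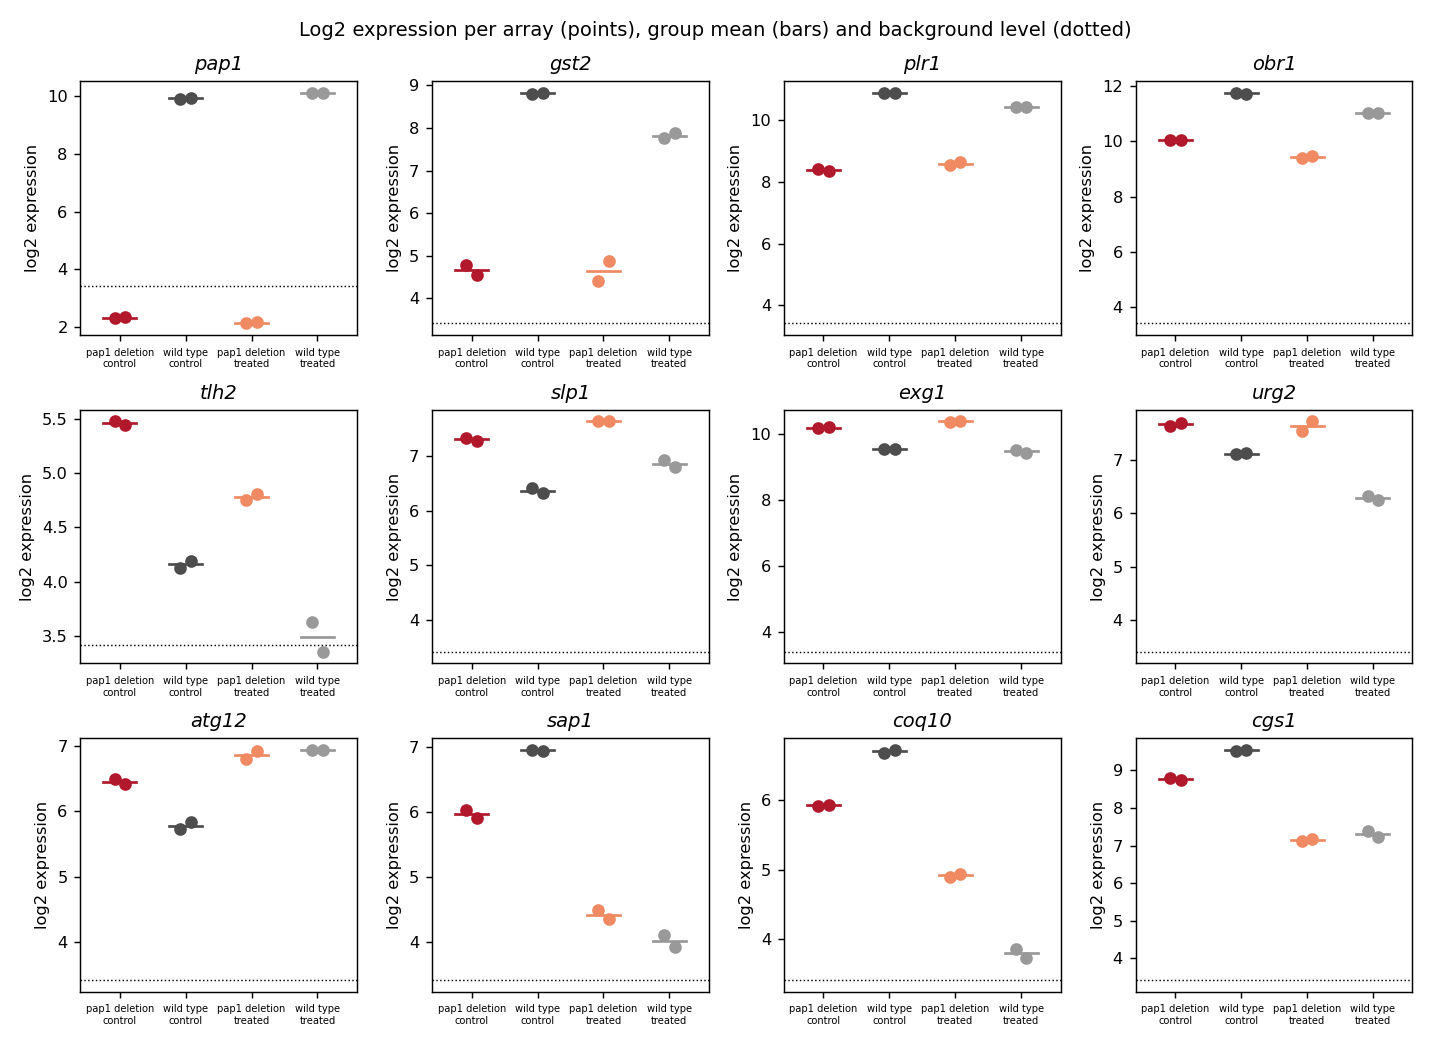
Log2 expression of 12 genes in each array (points) with group means (bars), from left to right in pap1 deletion control, wild type control, pap1 deletion treated and wild type treated cells; the dotted line is the background level of 3.41. gst2, plr1 and obr1 are lower in the deletion in both conditions and tlh2, slp1, exg1 and urg2 higher, while sap1 and coq10 are lower in the deletion in controls and higher in it after active donor.

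The list of 13 measured genes known to depend on Pap1 under oxidative stress had 6 members lower (46.2%) and 0 higher. Among all genes tested 9.15% were lower and 8.22% higher. The median of the list was -0.17, against a median of 0.01 over all genes tested. With 1 array left out the count of lower members was 4 in each case. Beyond gst2 and obr1, the falls were modest. The glucose-6-phosphate dehydrogenase gene zwf1, which supplies NADPH, read 10.55 and 10.62 in deletion controls against 11.07 and 11.06 in wild type controls (-0.48 ± 0.06, adjusted p = 0.00468). The thioredoxin gene trx2 fell by 0.37 on the log2 scale, the efflux pump gene bfr1 by 0.22, and the sulfiredoxin gene srx1, whose product repairs overoxidised Tpx1, by 0.19. Calls of bfr1 and srx1, unlike those of gst2, obr1, zwf1 and trx2, were lost under at least 1 of the alternative settings.

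Other genes known as peroxide targets of Pap1 did not pass the test. Catalase ctt1 read 12.39 and 12.49 in deletion controls against 12.63 and 12.59 in wild type controls (-0.17 ± 0.06, adjusted p = 0.0829). Thioredoxin reductase trr1 read 10.75 and 10.74 in deletion controls against 10.91 and 10.84 in wild type controls (-0.13 ± 0.04, adjusted p = 0.0872). In both genes the deletion arrays were the lower ones without overlap, as were the deletion arrays of 32.2% of all genes tested. The peroxiredoxin gene tpx1 differed by -0.03, glutathione reductase pgr1 by -0.04 and the transporter gene caf5 by 0.04, and none of these 3 passed. Superoxide dismutase sod1 differed by 0.03 and did not pass either.

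Regulators of Pap1 itself were partly lower. Of 16 measured genes for Pap1 control and redox sensing, 4 were lower and 0 higher (median -0.02), with 1 to 2 lower when an array was left out. The shares among all genes tested were 9.15% lower and 8.22% higher. After active donor 0 of these 4 genes were lower and 2 were higher. Of all 265 genes lower in controls, 57 were also lower after active donor and 160 were higher. The exportin gene crm1 read 9.09 and 9.22 in deletion controls against 9.41 and 9.44 in wild type controls (-0.27 ± 0.05, adjusted p = 0.0154). The phosphorelay gene mpr1, which passes signals from sensor kinases towards the Sty1 pathway, read 6.33 and 6.27 in deletion controls against 7.02 and 7.16 in wild type controls (-0.79 ± 0.07, adjusted p = 0.00152). Both deletion arrays lay below both wild type arrays for each gene, as for 32.2% of all genes tested. The crm1 call was lost without deletion control replicate 1 or without either wild type control array. The gene hba1, needed for Pap1 export, differed by 0.05 and prr1, a response regulator that works beside Pap1 in the peroxide response, by -0.11, and neither passed. The call of mpr1 held in every alternative setting.

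The Sty1 MAP kinase pathway, which controls the bZIP factors Atf1, Pcr1 and Atf21, had falls and no rises among the genes that passed. Of 38 measured members 14 were lower (36.8%) and 0 higher, with a median of -0.17, against 9.15% lower among all genes tested. With 1 array left out 6 to 9 were lower. The pcr1 gene, for the partner of Atf1, read 8.99 and 8.93 in deletion controls against 9.44 and 9.49 in wild type controls (-0.51 ± 0.06, adjusted p = 0.00445). Other falls were -0.58 for atf21, -0.52 for the kinase gene sck2, -0.48 for the zinc finger gene rsv2 and -0.30 for the Sty1-dependent kinase gene srk1. The main kinase sty1 (-0.17, adjusted p = 0.0898) and atf1 (-0.22, adjusted p = 0.091) did not pass. After active donor 19 of 38 were higher and 7 lower, and 9 of the 14 lower members were then higher. Over all genes tested 39.3% were higher and 26.5% lower after active donor. Of the 265 genes lower in controls, 160 were then higher. The call of atf21 did not survive the loss of any single array.

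Genes of cyclic AMP and protein kinase A signalling, which couples glucose to growth, had 8 of 16 measured members lower and 0 higher (median -0.22), and 3 to 5 lower with 1 array left out. The regulatory subunit gene cgs1 read 8.80 and 8.74 in deletion controls against 9.52 and 9.56 in wild type controls (-0.77 ± 0.06, adjusted p = 8.92e-04). The adenylyl cyclase-associated gene cap1 differed by -0.43, the G protein alpha subunit gene gpa2 by -0.28, and the glucose repressor gene scr1 by -0.39. The catalytic subunit pka1 differed by -0.19 and did not pass. The core environmental stress response, genes induced by nearly any stress in this yeast, had 9 of 33 members lower (27.3%) and 2 higher (median -0.10). Its falls included isp3, a spore wall gene, at -0.65 and the metallothionein gene zym1 at -0.23. With 1 array left out 3 to 4 of the stress response genes were lower. Of the 9 lower in controls, 5 were higher and 2 lower after active donor.

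Iron, copper and sulfur lists also had more falls than rises, against 9.15% lower and 8.22% higher among all genes tested. Lists described here share members, so their counts are not independent of each other. Both iron lists hold isu1, the Sty1 and core stress lists both hold rsv2 and srk1, and the Sty1 and cyclic AMP lists both hold sck2. The gene mpr1 is in the Pap1 control and Sty1 lists. Shares of lower members were 30.0% for iron acquisition, 25.9% for iron-sulfur and heme proteins, 29.4% for zinc and copper and 33.3% for sulfur. In iron acquisition 6 of 20 members were lower and 0 higher (median -0.18), among them php2 and php4, subunits of the CCAAT-binding complex, at -0.54 and -0.38. In the list of iron-sulfur and heme proteins 7 of 27 were lower and 2 higher. The iron-sulfur assembly gene isa1 read 9.52 and 9.49 in deletion controls against 10.23 and 10.23 in wild type controls (-0.73 ± 0.04, adjusted p = 2.09e-04). Zinc and copper homeostasis had 5 of 17 lower and 1 higher, with the copper transporter gene ctr4 at -0.38 and the superoxide dismutase copper chaperone gene ccs1 at -0.31. The methionine and sulfur list had 5 of 15 lower and 1 higher, among them the glutamate-cysteine ligase gene gcs1, which makes glutathione, at -0.29. With 1 array left out, 2 to 4 iron acquisition genes, 4 to 5 iron-sulfur and heme genes, 0 zinc and copper genes and 1 to 2 sulfur genes were lower.

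Single lipid and mitochondrial genes gave some of the larger falls. The sterol desaturase gene erg31 read 7.29 and 7.40 in deletion controls against 8.11 and 8.12 in wild type controls (-0.78 ± 0.09, adjusted p = 0.00445). The coenzyme Q gene coq10 read 5.93 in both deletion controls against 6.68 and 6.73 in wild type controls (-0.78 ± 0.05, adjusted p = 5.59e-04). Both differed in the opposite direction after active donor, at 1.45 for erg31 and 1.13 for coq10. In sterol and lipid synthesis 7 of 42 genes were lower (16.7%) and 4 higher (9.52%). In the respiratory chain 8 of 62 were lower (12.9%) and 4 higher (6.45%), near the 9.15% lower and 8.22% higher among all genes tested. When 1 array was left out, 2 to 3 and 2 to 4 were lower. The sap1 gene, which encodes an essential DNA-binding protein of replication fork arrest and mating type switching, read 6.03 and 5.92 in deletion controls against 6.97 and 6.94 in wild type controls. Its difference of -0.98 ± 0.08 (adjusted p = 7.57e-04) was the largest fall after those of pap1, gst2, plr1 and obr1. The remaining large falls were mob2, for an activator of the Orb6 kinase, at -0.81, the cyclin-dependent kinase gene pef1 at -0.76, the protein methyltransferase gene pcm2 at -0.75, the palmitoyltransferase gene pfa3 at -0.74 and the telomere bouquet gene bqt3 at -0.67. Of these, pef1, pfa3 and bqt3 lost their calls when single arrays were left out.

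Membrane and multidrug transporters, a list wider than the drug transporters that Pap1 can induce, showed small changes. Of 27 members 5 were lower (18.5%) and 1 higher (median -0.01), against 9.15% lower among all genes tested. The efflux pump gene pmd1 read 8.93 and 9.01 in deletion controls against 9.41 and 9.41 in wild type controls (-0.44 ± 0.05, adjusted p = 0.00432). The facilitator gene mfs2 differed by -0.42 and car1, for amiloride uptake, by -0.37. With 1 array left out 1 to 2 members were lower.

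The largest rise was that of tlh2, a subtelomeric RecQ-type helicase gene, at 5.48 and 5.44 in deletion controls against 4.13 and 4.19 in wild type controls (1.31 ± 0.09, adjusted p = 5.12e-04). It is uncertain, since near-identical copies lie at other chromosome ends and its 4 probe sets differed by 1.31, 0.80, 0.11 and -0.16, the probe sets with the small differences reading below background in both strains. The slp1 gene, for the Cdc20-type activator of the anaphase-promoting complex, read 7.33 and 7.28 in deletion controls against 6.41 and 6.33 in wild type controls (0.94 ± 0.05, adjusted p = 2.09e-04). For both genes the deletion arrays lay above the wild type arrays, as they did for 37.3% of all genes tested. Both were higher in the deletion after active donor also, at 1.29 for tlh2 and 0.78 for slp1.

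Genes for cell wall glucan and the uracil-regulated genes were among the rises found in both conditions. The glucosidase gene exg1 read 10.19 and 10.21 in deletion controls against 9.56 and 9.57 in wild type controls (0.64 ± 0.05, adjusted p = 5.59e-04). The glucanosyltransferase gene gas1 read 10.87 and 10.90 in deletion controls against 10.36 and 10.41 in wild type controls (0.50 ± 0.04, adjusted p = 9.19e-04). For both genes the deletion arrays lay above the wild type arrays, as the naming rule required and as held for 37.3% of all genes tested. Of the 41 genes for cell wall and separation, however, 4 were higher (9.76%) and 6 lower (14.6%), against 8.22% and 9.15% of all genes tested. With 1 array left out 2 were higher and 0 to 2 lower. The falls included the stress sensor gene wsc1 at -0.47 and the GTPase gene rho1 at -0.34. The salvage genes urg1, urg2 and urg3 rose by 0.55, 0.55 and 0.30, with urg2 at 7.64 and 7.69 in deletion controls against 7.11 and 7.13 in wild type controls. After active donor the strain differences of exg1, gas1, urg1, urg2 and urg3 were 0.90, 0.99, 0.85, 1.35 and 0.83.

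Among nuclear functions, rises were small. Of 55 MBF targets and replication genes 10 were higher (18.2%) and 3 lower (median 0.07), against 8.22% higher among all genes tested, and 3 to 5 were higher with 1 array left out. The flap endonuclease gene rad2 read 5.86 and 5.96 in deletion controls against 5.34 and 5.51 in wild type controls (0.48 ± 0.07, adjusted p = 0.00625). Other rises were 0.43 for the licensing factor gene cdt1 and 0.35 for the polymerase subunit gene cdc1. Of 81 repair genes 8 were higher, a share of 9.88% that lies near that of all genes, and 3 lower, among them the checkpoint gene rad9 at 0.44, and 2 to 4 were higher with 1 array left out. In heterochromatin and centromere genes 8 of 66 were higher (12.1%) and 1 lower, with the CENP-C gene cnp3 at 0.48 and the HP1-type gene chp2 at 0.42, and 0 to 4 were higher with 1 array left out. In splicing 13 of 82 genes were higher (15.9%) and 5 lower (median 0.11), and 0 to 1 were higher with 1 array left out. Among vacuole and autophagy genes 9 of 75 were higher and 1 lower, with the proton pump gene vma7 at 0.38, and 2 to 3 were higher with 1 array left out.

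Several large gene groups had few calls. Of 119 cytosolic ribosomal protein genes 4 were higher and 0 lower (median 0.04). Other settings gave 0 to 32 higher. Of 28 chaperone genes 1 was higher and 0 lower, the chaperonin gene cct3 at 0.17, and other settings gave 0 to 8. In nucleotide biosynthesis 1 of 23 was higher, and among the proteasome genes 2 of 29 were higher and 3 lower. Amino acid biosynthesis had 6 of 40 higher and 1 lower, with the kinase gene gcn2, a sensor of amino acid shortage, at 0.33 and the serine pathway gene ser2 at -0.29. Of 19 histone and histone chaperone genes 4 were higher and 2 lower, the falls being asf1 at -0.31 and the histone H2B gene htb1 at -0.26. The amino acid and histone lists had 15.0% and 21.1% of members higher. With 1 array left out, 0 to 2 amino acid genes and 0 to 1 histone genes were higher. Apart from these last lists, the shares lay near or below the 8.22% higher and 9.15% lower among all genes tested.

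**Figure D3:**
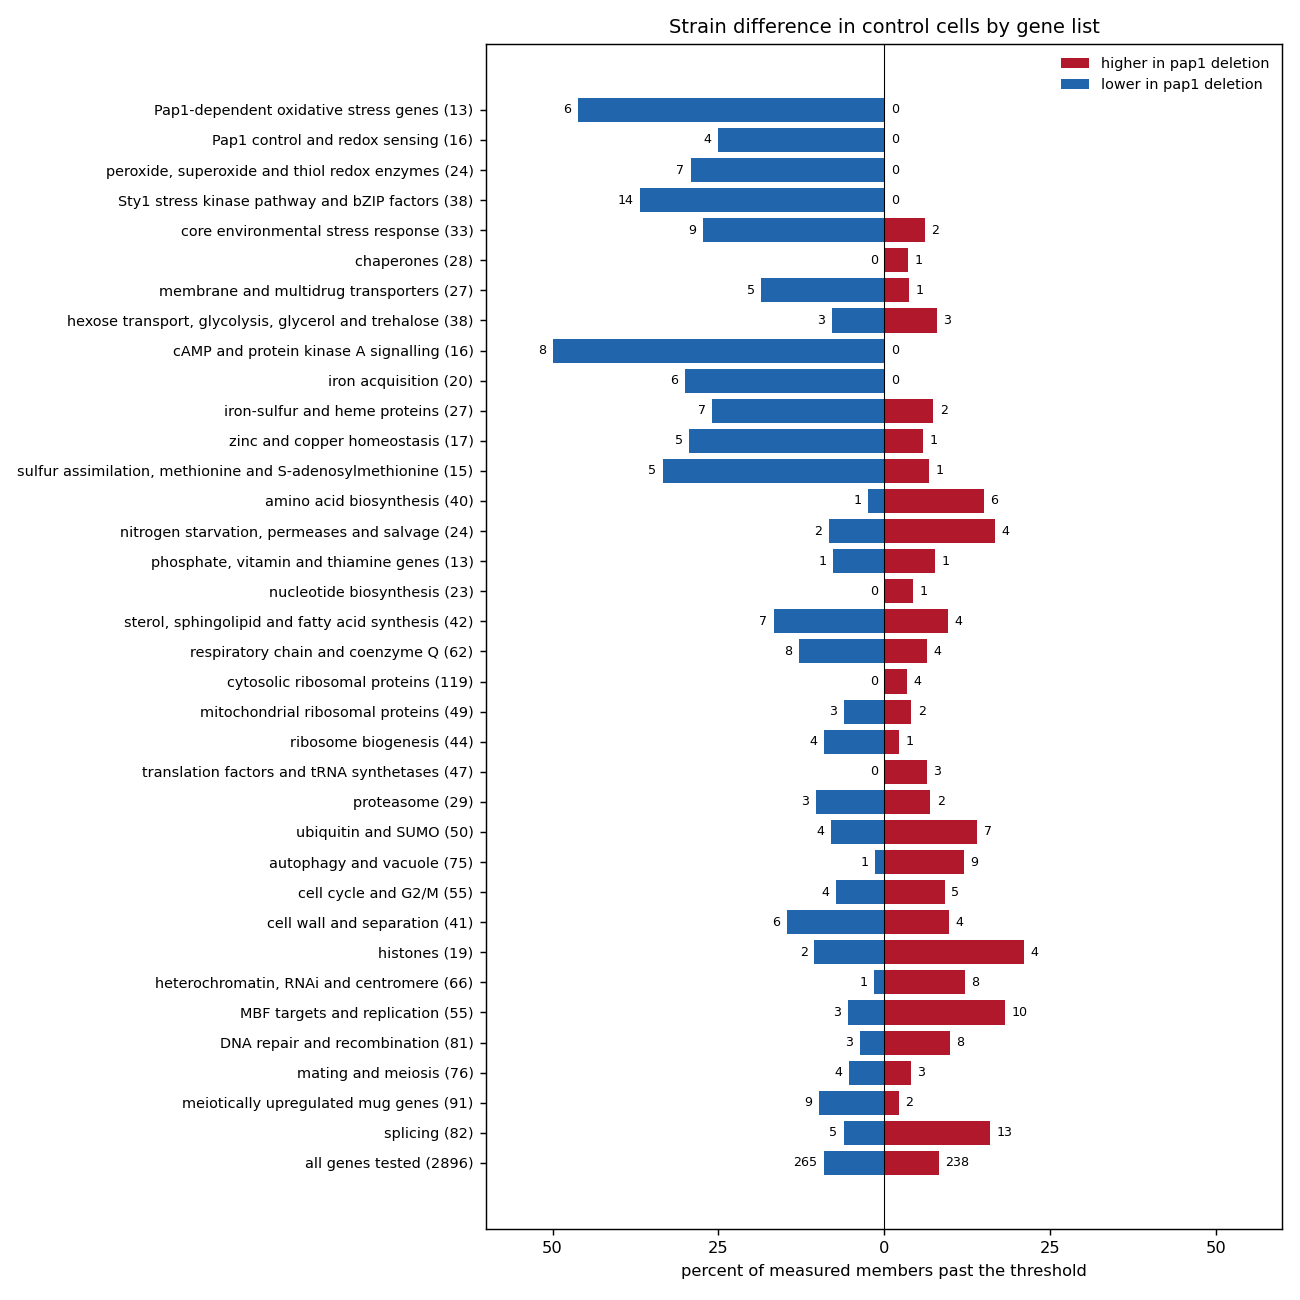
Percent of the measured members of each gene list that passed the test as higher (right) or lower (left) in pap1 deletion control than in wild type control cells; numbers at the bars are genes, numbers in brackets measured members, and the bottom bar is all 2896 genes. The Pap1-dependent, Sty1 and cyclic AMP lists have falls and no rises, and the splicing and replication lists more rises than falls.

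The balance of signal along transcripts also differed between the strains, and its strain difference changed sign with the donor. Over 7 S. pombe control transcripts the excess of 3′ over 5′ signal had a median of 1.65 ± 0.01 in deletion controls and 1.34 ± 0.08 in wild type controls (SD, n = 2 each). The difference of 0.31 had an exact permutation p of 0.333 (two-sided), the smallest that 2 arrays against 2 can give. It was present for 6 of the 7 transcripts, ACT1 with 0.48 and GPD3 with 0.40 among them, and was -0.13 for SRB4. In treated cells the median was 2.64 ± 0.12 for the deletion and 3.35 ± 0.02 for wild type, a difference of -0.71, the opposite sign. These transcripts are the cells' own, so their levels can change too. Added poly-A RNAs read 5.63 in deletion controls and 5.91 in wild type controls, while hybridization controls differed by -0.06 between them. In treated cells the poly-A RNAs differed by -0.31, close to their difference of -0.28 in control cells. The hybridization controls of treated cells read 9.14 in the deletion and 10.08 in wild type, a difference of -0.94. In the hybridization controls the treated wild type arrays thus stood apart from the other 3 groups. The part of the index in the strain differences was not tested.

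**Figure D4:**
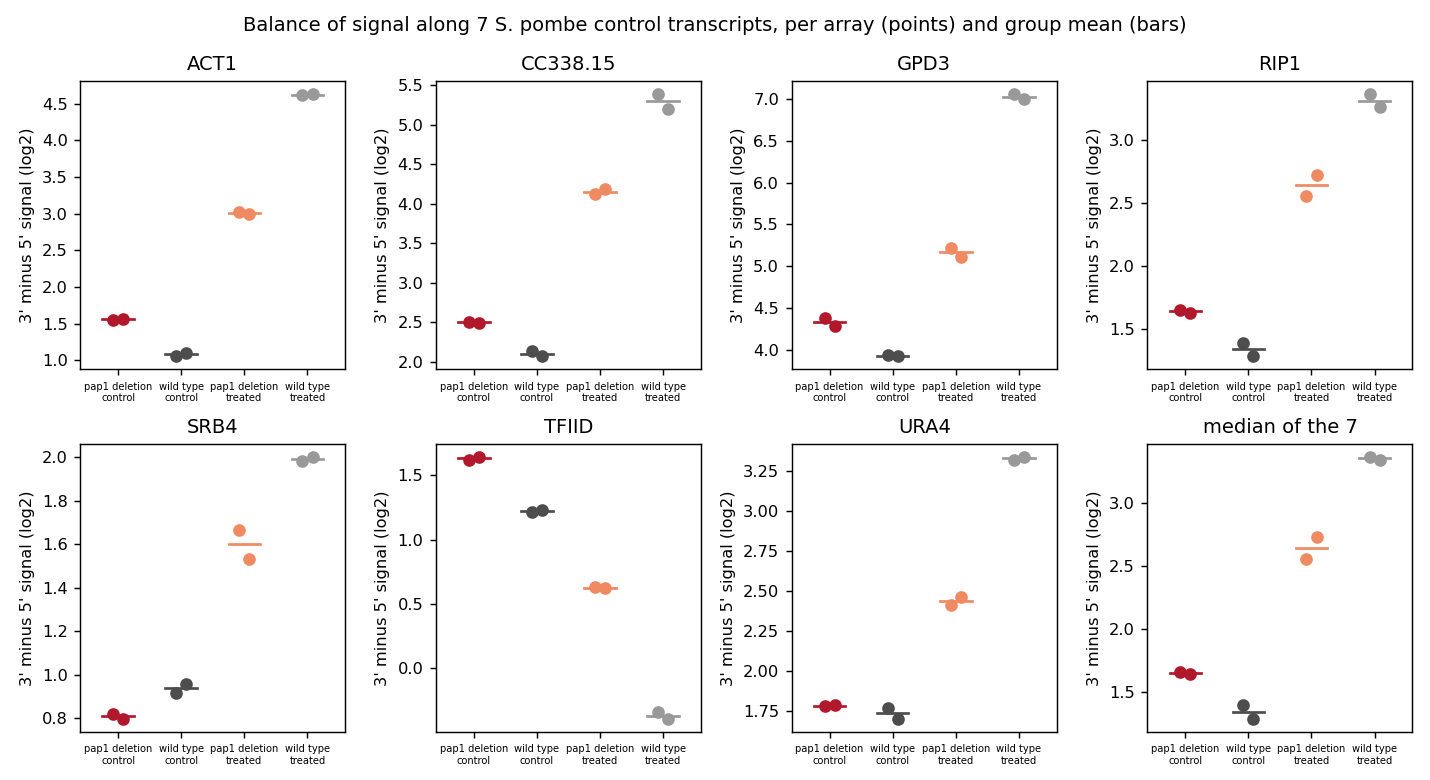
Log2 signal at the 3′ end minus that at the 5′ end for 7 control transcripts and their median, per array (points) with group means (bars), from left to right in pap1 deletion control, wild type control, pap1 deletion treated and wild type treated cells. In controls 6 of the 7 lie higher in the deletion, and in treated cells most lie lower.

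The strain difference was also measured in treated arrays, whose levels do not enter the difference between the controls, though cells of the same flasks gave both. There 1139 genes were higher in the deletion (39.3%) and 766 lower (26.5%). By 2-fold or more, 117 were higher and 15 lower after active donor, against the 1 higher and 4 lower in controls. Of the 238 genes higher in the deletion controls, 71 were also higher after active donor (29.8%, and 2.45% of all genes tested), 94 were lower and 73 did not pass. Of the 265 lower genes 57 were also lower (21.5%, and 1.97% of all genes tested), 160 were higher and 48 did not pass. The test of the difference itself passed for 395 of the 503 genes called in controls and for 59.1% of all genes tested. That test contains the contrast that chose the 503, so nothing is read from the comparison of these shares. Across genes the strain differences in control and treated cells had a Pearson correlation of 0.10 and a Spearman correlation of -0.22. Without pap1, gst2, plr1 and obr1 the Pearson correlation was -0.21, so its positive sign rests on those 4 genes.

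The larger rises and falls were followed into the treated arrays. Of the 8 rises of at least 0.5 on the log2 scale, 7 were higher after active donor too, and the remaining one, atg12, did not pass. Of the 44 falls of that size, 9 were lower in both conditions and 25 were higher after active donor. Besides pap1, gst2, plr1 and obr1, genes lower in both included the alpha-galactosidase gene mel1 at -0.62 in controls and -1.33 after active donor. The pcm2 gene differed by -0.75 in controls and -0.42 after active donor, and php2 by -0.54 in controls and -0.42 after active donor. Among smaller falls, the transporter genes mfs2 and bfr1 and the sulfiredoxin gene srx1 were lower in both, at -0.42, -0.22 and -0.19 in controls and at -0.60, -0.44 and -0.55 after active donor.

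**Figure D5:**
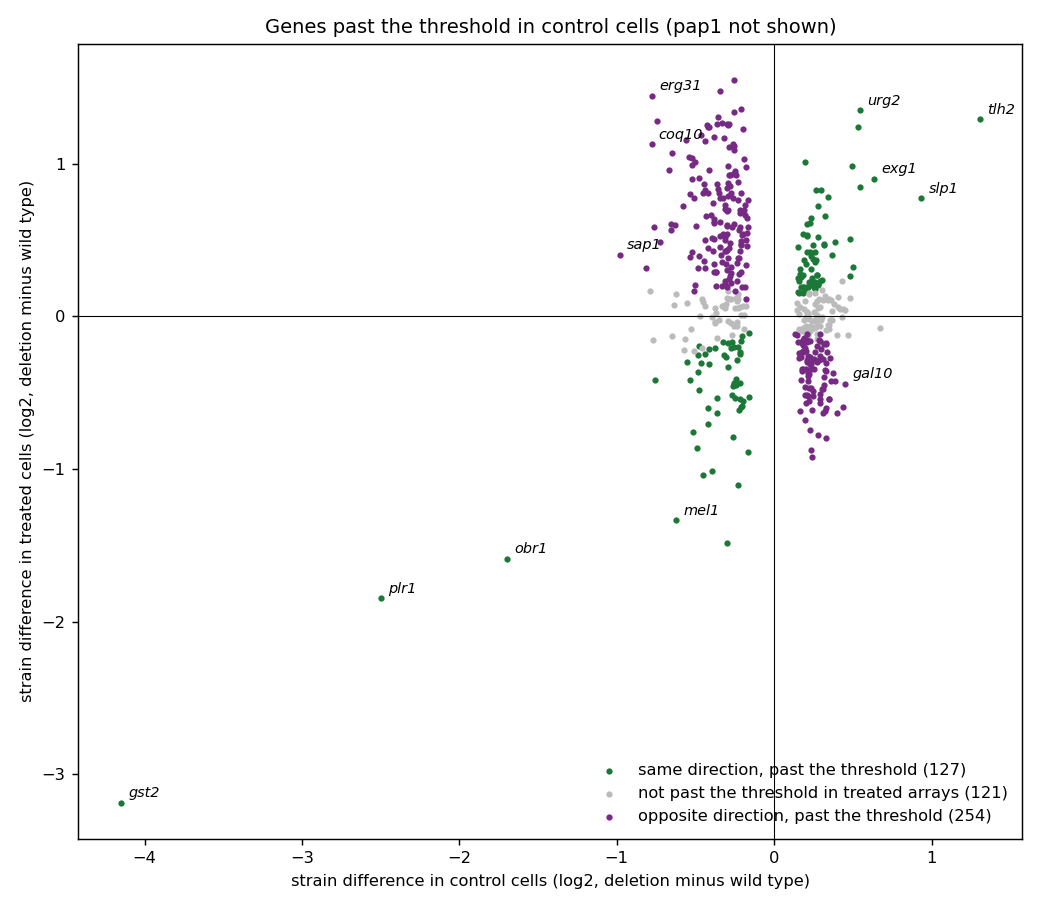
Strain difference (log2, pap1 deletion minus wild type) in treated cells (vertical) against that in control cells (horizontal) for the genes past the threshold in control cells, pap1 not shown. Of these, 127 passed in the same direction in treated cells, 254 in the opposite direction, and 121 did not pass; gst2, plr1 and obr1 lie far into the lower left.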

How the data were processed

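RNA labelled from 100 ng of total RNA was hybridized to 8 Affymetrix Yeast_2 arrays. The authors deposited 1 log2 value for each probe set, summarised with RMA per the submitters' processing notes (version not stated). They were used without further scaling. Of 10928 probe sets, 2914 had exactly 1 S. pombe gene; where 14 genes had several, the one with the highest mean over 8 arrays was kept, leaving 2896 genes of 5124 protein-coding genes in the RefSeq table.

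Strain effects were estimated with limma 3.58.1 under R 4.3.3. The linear model gave each group its own mean, all 8 arrays entered, and variances were moderated by eBayes with no trend, leaving 4 residual and 3.07 prior degrees of freedom. P-values were Benjamini-Hochberg adjusted over all 2896 genes, with calls at an adjusted p under 0.05. Contrasts were the deletion minus wild type in control cells, the same in treated cells, and the treated one minus the control one. Standard errors are limma's, and the number of arrays limits the precision. On simulated data of the control contrast (2896 genes, 200 changed), 67.2%, 92.5% and 98.5% of genes changed by 0.3, 0.6 and 1 were recovered and 11 unchanged genes called. The simulated noise was independent between genes and arrays, with no shift shared by an array or strain. These rates therefore need not hold for the measured arrays.

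Genes were named by rule: the 15 largest rises and falls with separated arrays, up to 3 called members per list, fixed Pap1 and stress genes, and the 3 nearest measured genes on either side of pap1. The members, rule and 38 lists were chosen with earlier results of these data known, and list members whose symbol stands for another protein were removed after values were seen. The genes gst1, leu1, ade6, srk1, zym1, gpa2, pka1, rho1, urg3 and mel1 were named after their values were seen. Correlations of same-numbered deviations were -0.26 to 0.06, which cannot decide whether replicate numbers pair samples. The main fit took the arrays as unpaired. A planned search of promoters for motifs was not analysed here. Alternatives were 2 scalings, an intensity trend, control arrays alone, a background filter, the mean of a gene's probe sets, a replicate block and each control array left out.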

Additional observations from a re-analysis of the deposited data

Results flagged for a closer look

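The strain difference itself was compared between conditions. For 98 of the 128 genes named by rule, the strain difference in treated cells minus that in control cells passed an adjusted p under 0.05 in limma's fit over all genes, in which 983 genes had a positive value and 728 a negative one (59.1% of all genes tested). The values below are that difference on the log2 scale, so a positive one means that the deletion stood higher against wild type after active donor than in controls.

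Of the genes lower in the deletion controls, 37 were higher in the deletion after active donor, and their values were rsm10 0.53, trx2 0.66, pcr1 0.67, txl1 0.68, shy1 0.73, pre8 0.74, mrpl17 0.74, ccs1 0.84, fet4 0.87, sap62 0.92, ctr4 0.99, php4 1.00, ubc6 1.04, cap1 1.09, sre2 1.13, mob2 1.13, met6 1.19, isa1 1.21, ser2 1.21, nep2 1.22, isu1 1.28, pef1 1.34, mes1 1.37, rsv2 1.38, sap1 1.38, sck2 1.42, mrp51 1.52, rpt5 1.54, amt1 1.56, rrn5 1.58, bqt3 1.63, tim18 1.68, scs7 1.71, htb1 1.80, coq10 1.90, pfa3 2.02 and erg31 2.22.

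Lower in the deletion in both conditions, by different amounts, were 8 genes, with cwf23 -0.37, srx1 -0.36, mak16 -0.29, bfr1 -0.22, zwf1 0.28, pcm2 0.34, plr1 0.65 and gst2 0.96. For pap1 (-0.36), also lower in both, the deletion arrays lay below background in both conditions, and for mcp4 (-0.59) the mean of the deletion controls did, so these values do not show that the strain difference changed. Lower in controls and not past the threshold after active donor were 14 genes, with crm1 0.23, gcs1 0.26, mug57 0.34, asf1 0.39, car1 0.39, scr1 0.39, met16 0.40, wsc1 0.47, pmd1 0.51, isp3 0.52, fta1 0.57, cgs1 0.62, sfp1 0.64 and mpr1 0.95.

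Among the genes higher in the deletion controls, 7 were lower after active donor, with snu23 -1.04, gcn2 -0.94, gal10 -0.89, map4 -0.89, vma7 -0.81, rpl4102 -0.33 and rps3002 -0.32. Higher in both conditions were 6 genes, with shm2 0.22, exg1 0.27, urg1 0.30, gas1 0.49, uds1 0.71 and urg2 0.80. Higher in controls and not past the threshold after active donor were 16 genes, with atg12 -0.75, hri2 -0.59, rpc82 -0.41, cdc1 -0.41, rad9 -0.39, chp2 -0.37, rad2 -0.36, mad1 -0.35, rpp101 -0.34, smc5 -0.34, thi4 -0.29, cul3 -0.28, his5 -0.27, inv1 -0.24, rpt1 -0.22 and mfm2 -0.22.

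Not past the threshold in controls were 8 genes, with hrp1 -0.88, sod1 -0.45, trr1 0.21, pgr1 0.33, hba1 0.33, ypt3 0.54, caf5 0.55 and sty1 0.92.

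One of the 47 reporter probe sets, which enter no comparison of genes, was higher in the deletion controls than in wild type controls by 9.26 on the log2 scale, at least 241-fold over the background level. It read 11.27 and 11.35 in treated deletion arrays against 2.02 and 3.05 in treated wild type arrays.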

How the results depend on the processing

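Of the 128 genes named by rule, none changed sign with a call under any alternative, and 44 of the 113 called among them, pap1, gst2, plr1, obr1, zwf1, tlh2 and slp1 among them, stayed past the threshold under all of them. Without 1 control array, 52 to 60 of 128 named genes lost their calls, and with the replicate block 14 did. Counts that moved by over 1.5 times were as follows, against 238 genes higher in the deletion controls, 265 lower, 71 higher in both conditions, 57 lower in both, 94 higher in controls and lower in treated cells, and 160 the other way. Median centring and quantile scaling each gave 144 higher in controls and lower in treated cells. Centring moved the share of rises among calls to 57.4%, against 47.3%. With an intensity trend 367 were higher and 122 higher in both, and with the 4 control arrays alone 386 were higher and 401 lower. The mean of all probe sets left 0 genes higher by 2-fold, since tlh2 was averaged. The replicate block gave 156 higher, 43 higher in both and 60 higher then lower, though whether replicate numbers pair the samples is not known. Leaving out 1 control array gave 24 to 51 higher, 83 to 87 lower, 9 to 15 higher in both, 19 to 22 lower in both, 7 to 19 higher then lower and 48 to 50 lower then higher, and here fewer arrays also leave fewer degrees of freedom. The cause of the other shifts was not tested. Low signal limits 78 genes that lay below background in both control groups. The planned promoter search was not run.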

Other observations

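Probe sets without a gene name held further strain differences. Of 5177 such probe sets on this array of both yeasts, 57 were higher and 110 lower in the deletion controls in the same limma model, with p-values adjusted over the probe sets fitted there, and 2 were higher and 12 lower by 2-fold or more. Of the 12, 11 were also lower in the deletion after active donor, and both of the higher ones were also higher then.

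Probe set 1780228_s_at read 3.01 and 3.09 in deletion controls against 10.40 and 10.45 in wild type controls, and 1771701_at read 3.17 and 3.58 in deletion controls against 10.51 and 10.45 in wild type controls. For 1780228_s_at both deletion controls lay below background, so its signal was at least 129-fold lower in the deletion. For 1771701_at 1 of the 2 deletion controls lay above background. After active donor 1780228_s_at read 2.63 and 3.11 in the deletion against 10.25 and 10.25 in wild type, and 1771701_at read 3.55 and 3.24 in the deletion against 11.27 and 11.23 in wild type. The genes they read are not named in the annotation used here. The higher ones were 1769794_at, at 4.61 and 4.23 in deletion controls against 2.05 and 2.33 in wild type controls, and 1772987_at, at 4.47 and 4.54 in deletion controls against 3.23 and 3.01 in wild type controls. Both lay below background in wild type controls, so the rises were at least 2.01-fold and 2.14-fold.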
